A study of Mus musculus with 12 samples.

Results

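Zp1, Zp2 and Zp3, which encode glycoproteins of the zona pellucida, and Gdf9 and Bmp15, which encode growth factors secreted by the oocyte, were followed through mouse preimplantation development. They are 5 of the 18194 genes named on the arrays. They were chosen by gene symbol, and where a gene had several probe sets the one with the highest mean was taken. Levels are log2(intensity + 1) throughout, and differences are differences of such levels.

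Embryos of ICR mice were profiled on 12 Affymetrix Mouse Genome 430 2.0 arrays in 6 groups of 2 arrays. The treated embryos were arrested at the 4-cell stage on day 2.5 in 20 µM U0126, an inhibitor of the ERK MAP kinase pathway that acts on the kinase MEK. Embryos let go from that arrest were collected at day 3.5, when they were at the 8-cell stage, and at day 4.5, when they were morulae to blastocysts. Control embryos were collected at 3 times, as 2-cell embryos on day 1.5, as 4- to 8-cell embryos on day 2.5 and as morulae to blastocysts on day 3.5. The study addressed the need for ERK signalling in these divisions. The series' text describes 2 independent experiments, and the number of embryos pooled for an array and any vehicle given to the controls are not stated in the sources used here. Labelled RNA was made from the same 0.1 µg of total RNA in every group. Fewer cells of a type and less RNA per cell cannot be told apart in such bulk samples, and a level here is a share of the embryo's RNA, not an amount per embryo.

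The zona pellucida is the extracellular coat of the mammalian egg. ZP2 and ZP3 form the repeating filaments of the mouse coat, ZP1 cross-links them, and ZP2 is cleaved after fertilization by ovastacin, a protease released from the egg. GDF9 and BMP15 are members of the TGF-beta family that the oocyte sends to the surrounding granulosa and cumulus cells, where they drive follicle growth and cumulus function. All 5 genes are transcribed in the growing oocyte, and the coat stays around the embryo as protein until hatching, whether or not its mRNAs remain. Stored oocyte mRNAs are cleared in waves during meiotic maturation and around the activation of the embryonic genome.

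Within a group the correlation between the 2 arrays over all genes tested ranged from 0.955 for U0126 day 2.5 to 0.980 for released day 4.5. The median level of an array lay between 3.56 and 3.65. Among the stage markers, Krt8 (a trophectoderm keratin) had levels of 6.95 and 5.86 in U0126 day 2.5 embryos, against 9.98 and 9.19 in control day 2.5 embryos. Zfp352, a 2-cell stage gene, had levels of 8.44 and 8.66 in U0126 day 2.5 embryos, against 6.53 and 4.96 in control day 2.5 embryos. Krt8 was thus lower and Zfp352 higher in the arrested 4-cell embryos than in the 4- to 8-cell controls. By the test given below, the Zfp352 difference was called in only 2 of the 12 fits that leave out 1 array. The Krt8 difference was called in all 12. In released day 3.5 embryos against control day 2.5, all 6 stage markers tested were called higher by the test given next. In that comparison 12.7% of all genes were called in either direction. Zfp352 was among the 6, although the released embryos had reached the 8-cell stage. The 9930 genes that reached a level of 5 on 2 or more arrays were tested. A difference was called where limma's moderated test gave a Benjamini-Hochberg adjusted p under 0.05 over those genes.

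All 5 members passed that filter, but Zp1, Zp2 and Bmp15 passed it through control day 1.5, where both arrays reached 5. Zp1 reached 5 on 0 of the other 10 arrays, and Zp2 and Bmp15 each on 1, a U0126 day 2.5 array. Their difference from control day 1.5 is therefore built into the filter. The same holds for any gene of the lists below that passed it only through control day 1.5. Zp3 and Gdf9 reached 5 on 9 arrays each, which include both U0126 day 2.5 and both released day 3.5 arrays. A level under 5 is near the array background, and the size of a difference there is uncertain.

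RefSeq promoter sequence was at hand for Zp3 and Bmp15. Both are shown because the 2 genes moved with the other members over the 12 arrays and because zona pellucida genes are known targets of FIGLA, a basic helix-loop-helix factor that binds E-boxes, and Gdf9 and Bmp15 of NOBOX, a homeodomain factor of the oocyte. Each window is the 250 bases before the annotated start in GRCm38.p6, read 5′ to 3′ on the gene's strand, with every E-box (CANNTG) in capitals. The Zp3 window is chr5:135979855-135980104 on the plus strand and the Bmp15 window is chrX:6320725-6320974 on the minus strand.
Zp3: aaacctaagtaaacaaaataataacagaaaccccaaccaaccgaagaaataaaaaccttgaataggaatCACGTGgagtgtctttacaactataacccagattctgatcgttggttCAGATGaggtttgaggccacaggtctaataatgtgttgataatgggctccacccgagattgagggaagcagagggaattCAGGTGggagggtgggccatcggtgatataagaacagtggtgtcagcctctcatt
Bmp15: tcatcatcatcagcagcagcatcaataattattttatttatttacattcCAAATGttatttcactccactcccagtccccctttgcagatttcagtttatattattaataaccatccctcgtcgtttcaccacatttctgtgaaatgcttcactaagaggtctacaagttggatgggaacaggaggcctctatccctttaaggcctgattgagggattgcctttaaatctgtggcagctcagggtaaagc
The Zp3 window holds 3 E-boxes, which begin 181, 134 and 55 bases before the start, and the Bmp15 window holds 1, which begins 201 bases before it. On either strand CANNTG occurs in 66.2% of 32851 promoter windows of this length, so its presence is common. Both windows hold 0 matches on either strand to CACTTG and CAGCTG, which are forms of CANNTG found in 11.6% and 13.0% of windows. They also hold 0 to TAATTG, found in 7.17%, the only NOBOX letters searched for. Other letters that NOBOX may bind were not searched, so the windows are not shown to lack NOBOX sites. The letters TATAAA, found in 12.4% of windows, occur once on the minus strand of the Bmp15 window, 155 bases before the start. These are matches of letters and do not show binding.

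The zona pellucida transcripts were highest in 2-cell control embryos. Zp1 had levels of 7.17 and 6.22 on the 2 control arrays at day 1.5, 3.94 and 4.38 at day 2.5, and 3.24 and 3.25 at day 3.5. Zp2 had levels of 8.09 and 8.50 at day 1.5, 4.29 and 4.12 at day 2.5, and 2.79 and 2.76 at day 3.5. Zp3 had levels of 9.63 and 9.04 at day 1.5, 6.95 and 7.05 at day 2.5, and 4.18 and 5.57 at day 3.5. For each of the 3 genes both day 1.5 arrays lay above every other array of the study, and at day 2.5 only Zp3 was still above 5 on both control arrays. Zp1 reached 5 on no array after day 1.5.

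The growth factor transcripts were also highest in 2-cell control embryos. Gdf9 had levels of 10.70 and 10.98 at control day 1.5, 6.33 and 7.52 at day 2.5, and 4.41 and 5.17 at day 3.5. Bmp15 had levels of 10.82 and 11.50 at day 1.5, 4.51 and 4.38 at day 2.5, and 3.55 and 3.85 at day 3.5. The Bmp15 signal was thus under 5 on both control arrays at day 2.5, whereas Gdf9 was above 5 on both until day 2.5 and on 1 of 2 at day 3.5. Levels of different probe sets are not a measure of which transcript was more abundant.

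**Figure D1:**
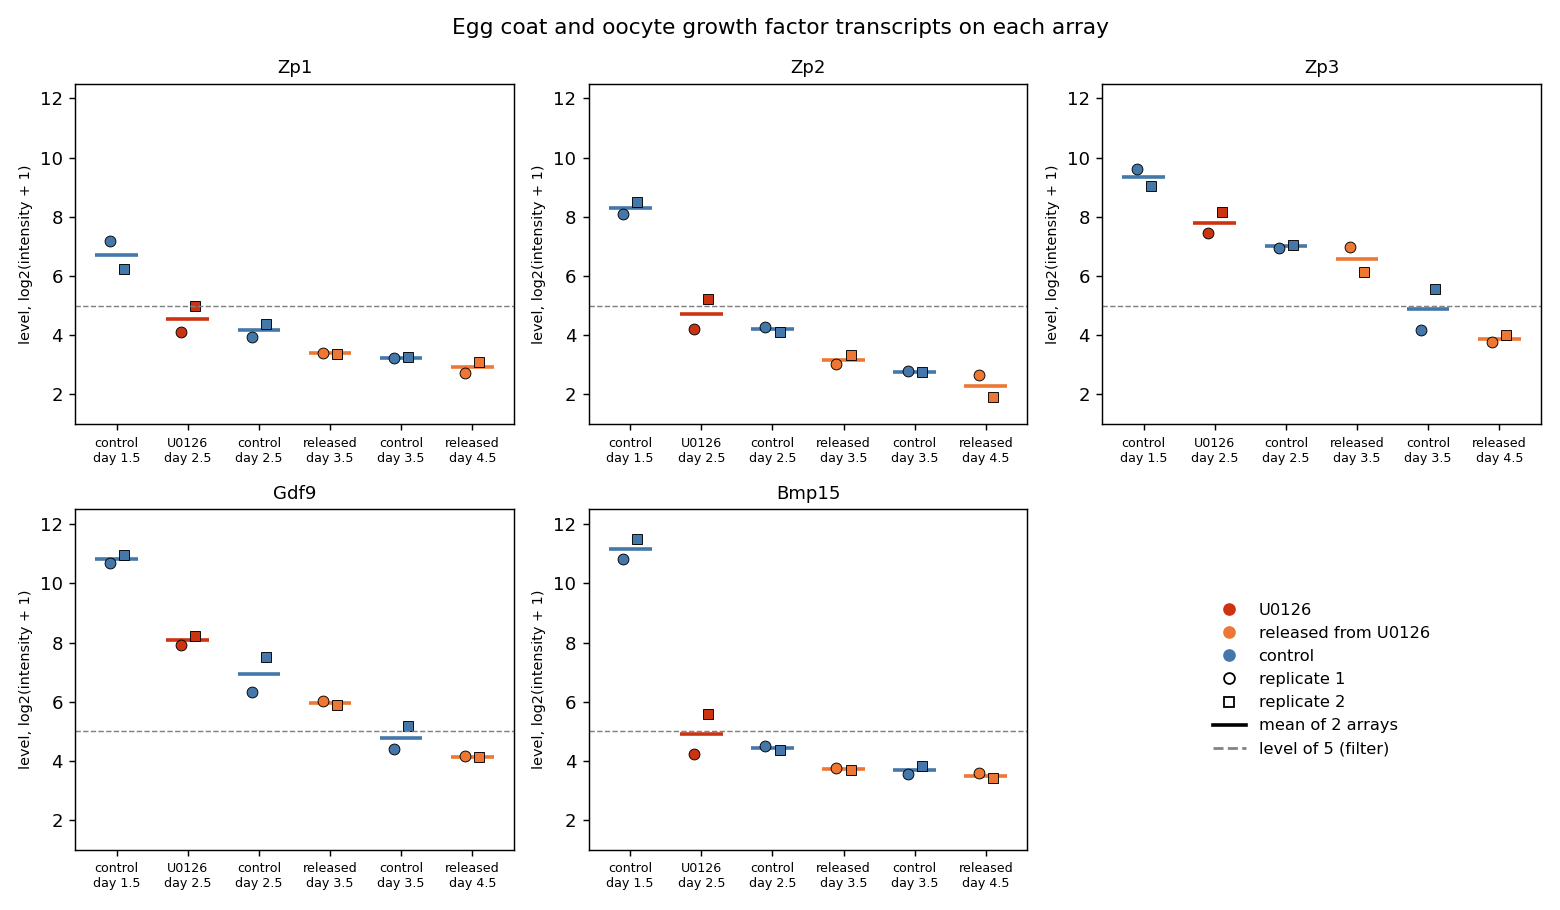
Level of Zp1, Zp2, Zp3, Gdf9 and Bmp15, log2(intensity + 1), on each of the 12 arrays, by group; circles are replicate 1, squares replicate 2, lines the mean of 2 arrays and the dashed line the level of 5 used as a filter. In every panel the control day 1.5 arrays are highest, and the U0126 day 2.5 arrays of Zp3 and Gdf9 lie above those of control day 2.5.

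Between day 1.5 and day 2.5 of control development every member fell. The share of all genes tested that were called lower was 27.4%, and since the filter built in part of these differences, the 5 calls are a description. Bmp15 fell the most (log2 difference -6.72 ± 0.41, standard error, adjusted p = 5.79e-07), to at most 1.40% of its day 1.5 level when day 2.5 is counted at the level of 5. Only 22 of the 9930 genes, or 0.222%, had a difference as low as this. Zp2 (-4.09 ± 0.37, adjusted p = 7.37e-06) and Gdf9 (-3.91 ± 0.39, adjusted p = 1.37e-05) fell as well. Gdf9 stood at 6.65% of its day 1.5 level at day 2.5, and Zp2 at no more than 10.2%. Zp1 fell by 2.53 ± 0.38 (adjusted p = 0.00023), to no more than 30.9%. Zp3 fell by 2.34 ± 0.47 (adjusted p = 0.00148), and stood at 19.8% of its day 1.5 level. Zp3, encoding a coat filament subunit, and Gdf9 were the members with a signal clearly above the filter in 4- to 8-cell control embryos.

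From day 2.5 to day 3.5 in control embryos the 2 transcripts that were still above 5 went on falling. Here 8.28% of all genes tested were called lower. Gdf9 fell by 2.13 ± 0.39 (adjusted p = 0.00417), and Zp3 fell by 2.12 ± 0.47 (adjusted p = 0.0102). For both genes the level at day 3.5 was about 23% of that at day 2.5, 22.8% for Gdf9 and 23.0% for Zp3, with 1 day 3.5 array under 5 in each case. Zp2 also passed the test (-1.43 ± 0.37, adjusted p = 0.0209), but all 4 of its arrays were under 5. Zp1 (-0.92 ± 0.38, adjusted p = 0.109) and Bmp15 (-0.75 ± 0.41, adjusted p = 0.217) did not pass, and both were under 5 at day 2.5 already. The call for Zp3 was lost without control day 3.5 replicate 1 (-1.43, adjusted p = 0.0994) and without control day 2.5 replicate 2 (adjusted p = 0.0563), that for Gdf9 without control day 3.5 replicate 1 (adjusted p = 0.0521), and that for Zp2 without any 1 of its 4 arrays (adjusted p between 0.0732 and 0.109).

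Over the whole span from day 1.5 to day 3.5, where 28.9% of all genes were called lower, the difference was -7.46 ± 0.41 for Bmp15, -6.05 ± 0.39 for Gdf9, -5.52 ± 0.37 for Zp2, -4.46 ± 0.47 for Zp3 and -3.45 ± 0.38 for Zp1. The adjusted p of these 5 ranged from 1.77e-07 for Bmp15 to 1.97e-05 for Zp1. The filter built in the differences of Zp1, Zp2 and Bmp15, so their calls are a description. Gdf9 ended at 1.51% of its 2-cell level and Zp3 at 4.54%. Each had 1 of 2 day 3.5 arrays under 5, so these sizes are uncertain. With day 3.5 counted at the level of 5, Bmp15 ended at no more than 1.40%, Zp2 at no more than 10.2% and Zp1 at no more than 30.9%.

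In embryos arrested with U0126 the 5 transcripts were also far below the 2-cell level. Zp1 had levels of 4.09 and 4.99 in U0126 day 2.5 embryos, Zp2 4.20 and 5.21, and Zp3 7.45 and 8.17. Gdf9 had levels of 7.93 and 8.21 in U0126 day 2.5 embryos and Bmp15 4.23 and 5.60. Replicate 2 was the higher array for each gene. Each was lower than in control day 1.5 embryos, where 22.0% of all genes were called lower. For Zp1, Zp2 and Bmp15 the filter built in this difference, so their calls are a description. The differences were -6.24 ± 0.41 for Bmp15 (adjusted p = 2.12e-06), -3.59 ± 0.37 for Zp2 (adjusted p = 2.87e-05), -2.77 ± 0.39 for Gdf9 (adjusted p = 2.00e-04), -2.16 ± 0.38 for Zp1 (adjusted p = 0.00086) and -1.53 ± 0.47 for Zp3 (adjusted p = 0.0187). The Zp3 level in arrested embryos was 34.6% of that in 2-cell controls and the Gdf9 level 14.7%. The Zp3 call was lost without U0126 day 2.5 replicate 1 (adjusted p = 0.122), without control day 1.5 replicate 1 (adjusted p = 0.113) and with no filter on low levels (adjusted p = 0.0527).

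Against control embryos of the same day, 0 of the 5 members passed the test after U0126, while 9.21% of all genes were called higher and 4.72% lower. At an unadjusted p under 0.05, limma called 1 of the 5, Gdf9, and 2787 of the 9930 genes tested. The largest difference was that of Gdf9, at 7.93 and 8.21 in U0126 day 2.5 embryos, against 6.33 and 7.52 in control day 2.5 embryos, a difference of 1.14 ± 0.39 (95% interval 0.28 to 2.00, adjusted p = 0.0786). The groups did not overlap, but the share of all genes without overlap is not given here. Gdf9 passed with the replicate number as a block (adjusted p = 0.0357), though what that number stands for is not stated. The Gdf9 difference was 1.74 when replicate 2 of control day 2.5 was left out. It was 0.55 when replicate 1 of that group was left out instead. Over all alternatives run, its adjusted p lay between 0.0312 and 0.468.

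Zp3 had levels of 7.45 and 8.17 in U0126 day 2.5 embryos, against 6.95 and 7.05 in control day 2.5 embryos. These groups did not overlap either, but the difference of 0.81 ± 0.47 did not pass (95% interval -0.22 to 1.84, adjusted p = 0.299). For Zp1 (0.38 ± 0.38, adjusted p = 0.581), Zp2 (0.50 ± 0.37, adjusted p = 0.426) and Bmp15 (0.47 ± 0.41, adjusted p = 0.507) the 2 groups overlapped and most arrays were under 5. Intervals reached from -0.47 to 1.22 for Zp1, from -0.32 to 1.33 for Zp2 and from -0.43 to 1.37 for Bmp15, so a log2 difference of 1 was within each of them. Without U0126 day 2.5 replicate 2 the differences were -0.071 for Zp1, -0.0031 for Zp2 and -0.21 for Bmp15. The median difference over all genes tested was 0.11 in this comparison and -0.09 with each array centred on its median, which shifts the members by the same amount. Of the genes called in either direction, 66.1% were higher after U0126, and 47.0% with that centring.

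**Figure D2:**
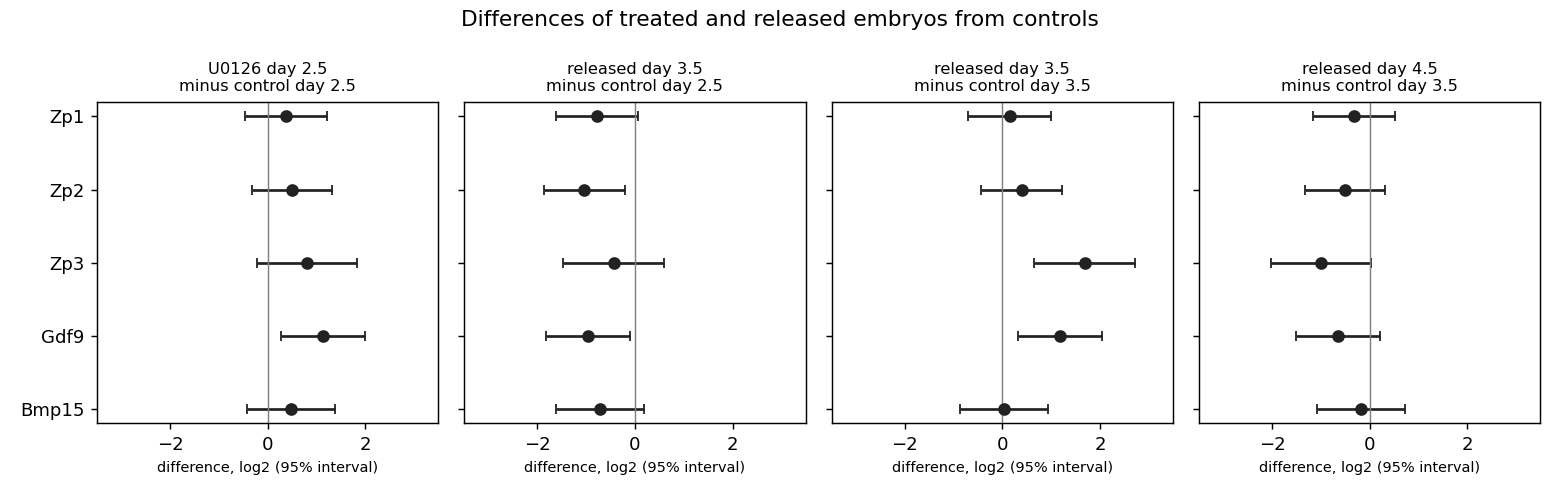
Difference of levels (log2) for each member in the comparisons shown, with 95% intervals from limma. For U0126 day 2.5 against control day 2.5 the intervals include 0 for 4 members and reach from 0.28 to 2.00 for Gdf9.

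The result for Bmp15 depended on the probe set. The array carries 3 probe sets for this gene, and the one used was that with the highest mean level. In U0126 day 2.5 embryos the probe set with the second highest mean had levels of 5.10 and 5.39, against 3.40 and 3.34 in control day 2.5 embryos, a difference of 1.88 ± 0.28 (adjusted p = 0.00287). Both arrested arrays lay above both control arrays, though only slightly above the level of 5. The third probe set, with the lowest mean, had levels of 3.41 and 3.50 in U0126 day 2.5 embryos, against 3.71 and 4.40 in control day 2.5 embryos, a difference of -0.60 ± 0.50 (adjusted p = 0.491). At day 2.5 compared with day 1.5 in control embryos all 3 probe sets were lower, with differences of -6.72 ± 0.41 for the one used, -6.07 ± 0.28 for the second and -2.48 ± 0.50 for the third. The 3 therefore gave 1 direction for the fall after the 2-cell stage and different calls for the arrest, and no statement on retention of Bmp15 mRNA under U0126 holds across them. The other 2 probe sets were looked at after the data had been seen.

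**Figure D3:**
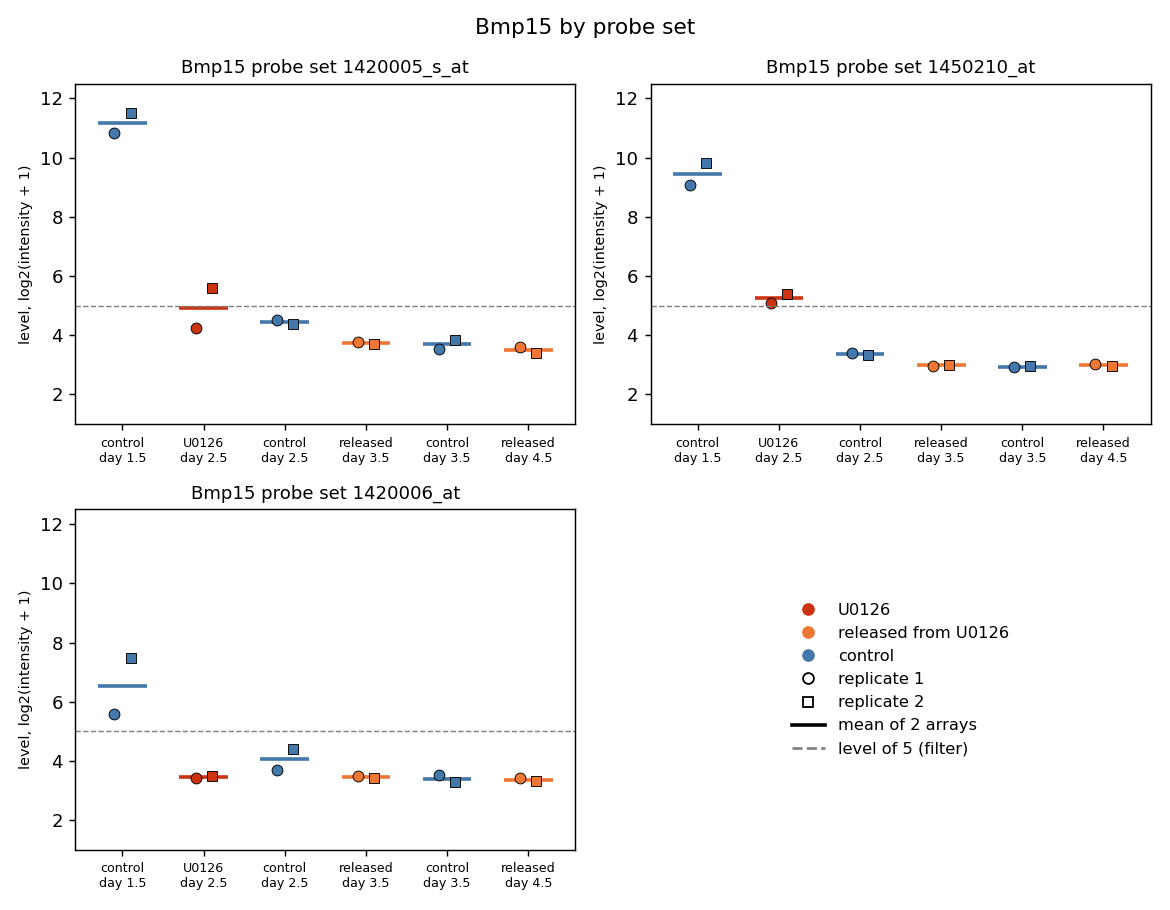
Level of the 3 Bmp15 probe sets, log2(intensity + 1), on each array by group, drawn as in the plot of the members, with the probe set used at the upper left, the second at the upper right and the third at the lower left. Both U0126 day 2.5 arrays lie above both control day 2.5 arrays for the second, the groups overlap for the one used, and the order is turned round for the third.

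A day after the arrest was lifted Gdf9 was lower again. It had levels of 6.03 and 5.90 in released day 3.5 embryos, against 7.93 and 8.21 in U0126 day 2.5 embryos, a difference of -2.10 ± 0.39 (adjusted p = 0.00302). This call held under every alternative run. In this step 14.5% of all genes were called lower and 13.7% higher. Zp3 had levels of 6.97 and 6.15 in released day 3.5 embryos, against 7.45 and 8.17 in U0126 day 2.5 embryos, and its difference of -1.24 ± 0.47 just missed the threshold (adjusted p = 0.0698). Bmp15, at 3.76 and 3.69 in released day 3.5 embryos against 4.23 and 5.60 in U0126 day 2.5 embryos, also just missed it (-1.19 ± 0.41, adjusted p = 0.0513). It passed with the replicate number as a block (adjusted p = 0.0315). Its difference was -1.87 without U0126 day 2.5 replicate 1 (adjusted p = 0.00537) and -0.51 without replicate 2 (adjusted p = 0.33). Here too the probe sets of Bmp15 disagreed, at -2.27 ± 0.28 for the second (adjusted p = 0.000388) and -0.0022 ± 0.50 for the third (adjusted p = 0.998).

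Zp2 had levels of 3.02 and 3.32 in released day 3.5 embryos, against 4.20 and 5.21 in U0126 day 2.5 embryos, and fell (-1.54 ± 0.37, adjusted p = 0.0115). The Zp2 call was lost without U0126 day 2.5 replicate 2 (-1.03, adjusted p = 0.0767) and without released day 3.5 replicate 1 (adjusted p = 0.0709). Zp1, at 3.37 and 3.41 in released embryos against 4.09 and 4.99 in arrested ones, passed narrowly (-1.15 ± 0.38, adjusted p = 0.045), with all 4 arrays under 5, and lost its call in 9 of the 12 fits that leave out 1 array (adjusted p up to 0.251).

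Set beside controls of day 2.5 and of day 3.5, the released 8-cell embryos had 0 of the 5 members past the threshold in either comparison. Against control day 2.5, the nearer stage by cell number, 12.7% of all genes were called (20.3% with the block). Limma called Zp2 and Gdf9 at an unadjusted p under 0.05, and 2808 of the 9930 genes tested. The differences were -0.77 for Zp1, -1.04 for Zp2, -0.44 for Zp3, -0.96 for Gdf9 and -0.72 for Bmp15, with adjusted p between 0.095 and 0.588. Without control day 2.5 replicate 1 the Gdf9 difference was -1.55 (adjusted p = 0.047), and the Zp2 call was gained without either U0126 day 2.5 array (adjusted p = 0.0489 each).

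Against control embryos of the same day 3.5 only 0.312% of all genes, 31 in number, were called. Zp3 had levels of 6.97 and 6.15 in released day 3.5 embryos, against 4.18 and 5.57 in control day 3.5 embryos. The difference was 1.68 ± 0.47 (95% interval 0.65 to 2.71, adjusted p = 0.272, unadjusted p = 0.00436), 0.99 without control day 3.5 replicate 1 and 2.38 without its replicate 2. Gdf9 had levels of 6.03 and 5.90 in released embryos, against 4.41 and 5.17 in control embryos, a difference of 1.17 ± 0.39 (95% interval 0.31 to 2.04, adjusted p = 0.438). For both genes each released array lay above each control array. Limma's unadjusted p was under 0.05 for both, as for 699 of the 9930 genes tested, but both failed the adjustment over all genes. Zp1, Zp2 and Bmp15 were under 5 in both groups, with differences of 0.15, 0.39 and 0.03.

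By day 4.5 all 5 transcripts were near background in released embryos. Zp3 had levels of 3.76 and 4.00 in released day 4.5 embryos, against 6.97 and 6.15 in released day 3.5 embryos, a difference of -2.69 ± 0.47 (adjusted p = 0.00537), or at least 1.56 down to the level of 5. Gdf9 had levels of 4.18 and 4.12 at day 4.5, against 6.03 and 5.90 at day 3.5, a difference of -1.82 ± 0.39 (adjusted p = 0.0135), or at least 0.97. In this step 6.37% of all genes were called lower, and 21.8% were called in either direction with the block, against 13.7% without it. Leaving out released day 3.5 replicate 1 ended the call of Zp3 (adjusted p = 0.0531), and leaving out any 1 of the 4 arrays compared ended that of Gdf9 (adjusted p between 0.0508 and 0.0916). Zp1, Zp2 and Bmp15, at or under 3.76 in both groups, did not pass.

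At the morula to blastocyst stage 0 of the 5 members differed past the threshold between released day 4.5 and control day 3.5 embryos, where 5.88% of all genes were called (10.2% with the block). At an unadjusted p under 0.05 limma also called 0 of the 5, against 2065 of the 9930 genes tested. The Zp3 difference was -1.001 ± 0.47 (95% interval -2.03 to 0.03, adjusted p = 0.256), -1.70 without control day 3.5 replicate 1 and -0.31 without its replicate 2. The others lay between -0.64 for Gdf9 and -0.19 for Bmp15. All 5 levels were under 5 on both released arrays.

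The step from day 2.5 to day 3.5 was also compared directly, as the change in embryos coming out of the arrest minus the change in control embryos. None of the 5 members passed this test in limma, at an adjusted or at an unadjusted p under 0.05. After adjustment 1.01% of all genes had a positive and 1.99% a negative interaction (6.97% in either direction with the block). Without adjustment limma's p was under 0.05 for 1831 of the 9930 genes tested. The change of Gdf9 was -2.10 in released embryos and -2.13 in controls, an interaction of 0.03 (95% interval -1.19 to 1.25). For Zp3 the interaction was 0.88 ± 0.66 (95% interval -0.58 to 2.34), 0.18 without control day 3.5 replicate 1 and 1.57 without its replicate 2. This test uses the same day 2.5 and day 3.5 arrays as the comparisons above.

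With the probe set used for each gene, the order of the 6 group means was the same in all 5 genes. From the highest down it was control day 1.5, U0126 day 2.5, control day 2.5, released day 3.5, control day 3.5 and released day 4.5. Of the 9930 genes tested 399, or 4.02%, had this order, and 30.7% had their highest mean at control day 1.5. Of the neighbours in this order, U0126 day 2.5 differed from control day 1.5 in each gene. For Zp1, Zp2 and Bmp15 the filter built that difference in. The 4 steps that follow, from U0126 day 2.5 to released day 4.5, passed for none of the 5. As the arrays are the same for all 5 genes, the shared order is not 5 separate observations. For Zp1, Zp2 and Bmp15 every mean other than that of control day 1.5 was under 5, near the array background. The other 2 Bmp15 probe sets had other orders. In the second, control day 3.5 (2.94) lay under released day 4.5 (2.98). In the third, control day 2.5 (4.05) lay above U0126 day 2.5 (3.46).

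**Figure D4:**
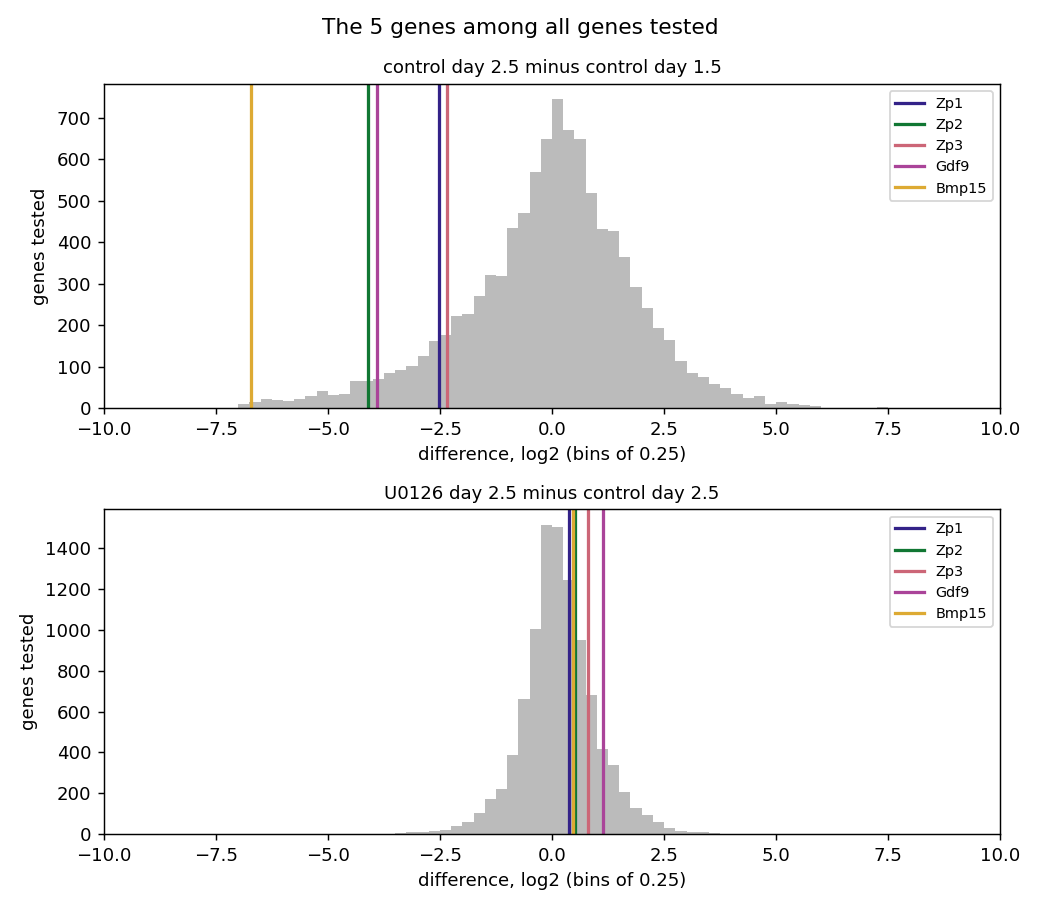
Distribution of log2 differences over the 9930 genes tested in the comparisons shown, with the 5 members marked. In control day 2.5 against control day 1.5 all 5 lie on the lower side, with 22 genes below Bmp15 and 1155 below Zp3, and in U0126 day 2.5 against control day 2.5 they lie in the upper part of the bulk.

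Over the 12 arrays the levels of the members rose and fell together, with Pearson r between 0.774 for Zp3 with Bmp15 and 0.967 for Zp1 with Zp2. Without the day 1.5 arrays r lay between 0.792 and 0.950 over 10 arrays. These values describe arrays that share stages and are not independent points. The 3 genes most like Gdf9 among those tested were Dtx2 (r = 0.995), Mpdz (0.991) and Nlrp5 (0.991), which encodes an egg protein of the subcortical maternal complex. Those most like Zp3 were Zfp622 (0.985), Zfp821 (0.982) and Kdm5b (0.981), a histone demethylase. The genes most like Zp2 were Bpgm (0.989), Bcl2l10 (0.989) and Oosp3 (0.988), and those most like Zp1 were Oog3 (0.986), Tchh (0.984) and Prps1l3 (0.983). Those most like Bmp15 were Ifitm6 (0.998), Fam81b (0.997) and Gm11827 (0.996). Ifitm6 and Fam81b were under 5 on every array except those of control day 1.5. Their r with Bmp15 thus rests largely on the day 1.5 arrays against values near background. Oosp1, which encodes an oocyte-secreted protein, was nearest to the mean of the 5 (r = 0.994). It was followed by Bcl2l10, a BCL2 family member of the oocyte, Mospd1, Bpgm, Pramel25, Fbxw24, Phospho2, Oog3, E330034G19Rik and Epn2 (r down to 0.986).

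Among transcription factors of the oocyte, Lhx8, Nobox and Nr6a1 also fell after the 2-cell stage. Of 10 such genes 9 were on the arrays and 7 were tested. Figla and Sohlh1 did not reach the filter. In control embryos at day 2.5 against day 1.5, 3 fell and 1 rose, in a step where 27.4% of all genes were called lower and 28.0% higher. Lhx8, a LIM homeobox factor needed for oocyte growth, had a difference of -6.29 ± 0.41 (adjusted p = 8.72e-07), Nobox -4.38 ± 0.37 (adjusted p = 4.96e-06) and Nr6a1, the germ cell nuclear factor, -1.85 ± 0.27 (adjusted p = 0.000185). The median of the 7 was -0.79, against 0.09 over all genes tested. Lhx8 stood at 4.64 and 5.27 in U0126 day 2.5 embryos, against 4.24 and 3.98 in control day 2.5 embryos, and Nobox at 2.52 and 2.93 after U0126, against 2.78 and 2.54 in those controls. Nobox was under 5 on each of these arrays. The filter builds in the fall of a gene that passed it only through control day 1.5. After U0126, where 9.21% of all genes were called higher and 4.72% lower, 1 of the 7 passed against control day 2.5. This was Pou5f1, which was lower (-1.60 ± 0.46, adjusted p = 0.0425). It lost its call in 8 of the 12 fits that leave out 1 array, including those without an array of control day 1.5, which is not in the comparison (adjusted p up to 0.255).

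Transcripts of other egg coat and egg surface partners mostly fell in the same step. Of 18 genes 12 were tested, and at control day 2.5 against day 1.5, 8 fell and 2 rose, where 27.4% and 28.0% of all genes did, with a median of -1.66. The difference was -6.62 ± 0.33 for Oosp3 (adjusted p = 2.08e-07), -6.07 ± 0.39 for Oosp2 (adjusted p = 7.93e-07) and -5.51 ± 0.50 for Oosp1 (adjusted p = 7.22e-06). All 3 encode proteins secreted by the oocyte, and Oosp1 and Oosp3 also stand in the wider list of stored oocyte transcripts. After U0126, 4 of the 12 were higher than in control day 2.5 embryos and 0 lower (1 lower with the block), where 9.21% and 4.72% of all genes were, with a median of 0.90. Of the fits without 1 array, those without control day 2.5 replicate 1 or either released day 4.5 array called 1 of the 12 higher, and the others 2 to 5. Oosp2 had levels of 5.10 and 6.45 in U0126 day 2.5 embryos, against 2.90 and 3.12 in control day 2.5 embryos (2.76 ± 0.39, adjusted p = 0.00233). Tgfbr3, the TGF-beta coreceptor betaglycan with a zona pellucida domain, rose by 1.49 ± 0.40 (adjusted p = 0.0354), and Furin, a proprotein convertase, by 1.30 ± 0.36 (adjusted p = 0.038). Oosp2 kept its call in all 12 fits without 1 array, Tgfbr3 lost it in 6 (adjusted p up to 0.228) and Furin in 7 (up to 0.201). Astl, which encodes the ZP2-cleaving protease ovastacin, had levels of 4.89 and 5.80 after U0126, against 4.52 and 4.42 in control day 2.5 embryos, and did not pass (adjusted p = 0.141). Oosp1, the gene nearest to the members' mean, did not pass either (0.92 ± 0.50, adjusted p = 0.263). In released day 3.5 embryos against U0126 day 2.5 embryos 4 fell and 1 rose, where 14.5% and 13.7% of all genes did. Among those that fell were Oosp2 (-3.00 ± 0.39, adjusted p = 0.00048), Oosp3 (-2.53 ± 0.33, adjusted p = 0.000476) and Oosp1 (-2.44 ± 0.50, adjusted p = 0.00512).

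Of 31 receptors, SMAD mediators, processing enzymes and inhibitors 21 were tested. At control day 2.5 against day 1.5, 6 rose and 4 fell, shares near the 28.0% and 27.4% of all genes, with a median of 0.11. Bmpr2, the type II receptor of both ligands, had levels of 8.86 and 9.36 at control day 2.5, against 8.81 and 9.55 at control day 1.5 (adjusted p = 0.886). Smad3, a mediator of GDF9 signals, fell by 2.92 ± 0.36 (adjusted p = 5.95e-05), and Id3, a BMP target gene, rose by 4.70 ± 0.41 (adjusted p = 5.35e-06). Skil, a SMAD corepressor, rose by 3.28 ± 0.52 (adjusted p = 0.000317).

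After U0126, 4 of these 21 genes were higher and 2 lower than in control day 2.5 embryos, where 9.21% and 4.72% of all genes were. Smad1, a mediator of BMP signals, had levels of 10.06 and 9.06 in U0126 day 2.5 embryos, against 6.76 and 5.60 in control day 2.5 embryos (3.38 ± 0.44, adjusted p = 0.00197). Smad5, of the same class, rose by 2.11 ± 0.48 (adjusted p = 0.0183), and Id3 fell by 3.01 ± 0.41 (adjusted p = 0.00206). Smad1 and Id3 were called in all 12 fits without 1 array, and Smad5 in 9 (adjusted p up to 0.108). The median of the 21 was 0.18, against 0.11 over all genes tested, and 1 was called higher without either control day 2.5 array and 2 without either U0126 array.

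Among 8 tested ligands of the TGF-beta family other than the members, 4 fell and 1 rose at control day 2.5 against day 1.5. In that step 27.4% of all genes were called lower and 28.0% higher. The difference was -5.67 ± 0.72 for Tgfb2 (adjusted p = 7.20e-05), -5.28 ± 0.24 for Bmp5 (adjusted p = 1.61e-07) and -5.27 ± 0.37 for Bmp6, which the oocyte also makes (adjusted p = 1.36e-06). After U0126 Bmp6 was higher than in control day 2.5 embryos (1.97 ± 0.37, adjusted p = 0.00769), Bmp4 was higher (0.84 ± 0.23, adjusted p = 0.0385) and Gdf3 was lower (-3.27 ± 0.43, adjusted p = 0.00199). Of all genes 9.21% were called higher and 4.72% lower after U0126. Of 7 tested oocyte growth and signalling genes, Kit, the receptor for granulosa cell KIT ligand, fell by 4.05 ± 0.38 at control day 2.5 (adjusted p = 8.76e-06), as did Gpr3, which keeps the oocyte in meiotic arrest (-4.05 ± 0.38, adjusted p = 8.81e-06), and Gja1, a gap junction gene, rose by 2.40 ± 0.32 (adjusted p = 9.88e-05). Kit was the 1 of these 7 called after U0126, and was higher (1.36 ± 0.38, adjusted p = 0.0385). Without 1 array Kit and Bmp4 each lost the call in 10 of 12 fits (adjusted p up to 0.259 and 0.151), Bmp6 lost it in 1, without control day 2.5 replicate 1 (0.0655), and Gdf3 in 0.

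In a wider list of stored oocyte transcripts most fell after the 2-cell stage. Of 41 genes 33 were tested, and 27 fell and 3 rose between day 1.5 and day 2.5 of control development, with a median of -3.46. Of all genes 27.4% were called lower and 28.0% higher in that step. The filter builds in the fall of any gene that passed it only through control day 1.5. After U0126, where 9.21% of all genes were called higher and 4.72% lower, 15 of the 33 were higher than in control day 2.5 embryos and 1 lower. The median of the 33 was 1.01, against 0.11 over all genes. The largest of these differences were those of Pkd2l2 (3.38 ± 0.37, adjusted p = 0.00102), Cpeb1 (3.18 ± 0.65, adjusted p = 0.0117), which binds stored mRNAs, and Trim75 (2.50 ± 0.25, adjusted p = 0.000686). Pkd2l2 and Trim75 were called in all 12 fits without 1 array and Cpeb1 in 9. Leaving out U0126 day 2.5 replicate 1 lowered the count of 15 to 10 and leaving out its replicate 2 to 9, while omitting control day 2.5 replicate 1 gave 4 and omitting its replicate 2 gave 6. In released day 3.5 embryos against U0126 day 2.5 embryos 19 fell and 2 rose, with a median of -1.48. Of all genes 14.5% were called lower and 13.7% higher in that step. The members' own differences after U0126 lay between 0.38 and 1.14, and none of the 5 passed. The 2 day 2.5 comparisons, with day 1.5 and with U0126, use the same control day 2.5 arrays.

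Markers of other cells that could come with the embryos were mostly under the filter. Of 15 cumulus and granulosa cell genes on the arrays 4 were tested, Amhr2, Kitl, Npr2 and Col4a1, and the other 11, which include Fshr and Foxl2, never reached the filter. Their summed intensity was 2153 to 2171 in U0126 day 2.5 embryos, against 1424 to 1617 in control day 2.5 embryos and 2841 to 3311 in control day 1.5 embryos, and most of it came from Amhr2. Of 5 sperm genes 0 and of 6 oviduct genes 1 (Ovgp1) were tested. Of 4 blood and immune cell genes 1 was tested, Cd68, at 7.29 and 6.50 in U0126 day 2.5 embryos, against 4.62 and 4.31 in control day 2.5 embryos (2.43 ± 0.40, adjusted p = 0.00452). The part of other cells in the members' values was not tested.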

How the data were processed

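Per the submitters' processing notes the deposited arrays were processed with GCRMA, and the series' text names GCOS and GeneSpring. The authors deposited 1 linear intensity per probe set and array, and no source used here gives any further scaling. Of 45101 probe sets, 34958 had 1 gene symbol in the platform annotation and 932 had several, which named no gene. From the deposited intensities the log2 level, log2(intensity + 1), was computed, and each gene was taken from its probe set with the highest mean.

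All 12 arrays entered 1 model in limma 3.58.1 (R 4.3.3) with a mean for each of 6 groups, 6 residual degrees of freedom and 4.51 from the prior. There were 11 contrasts, adjusted by Benjamini-Hochberg over 9930 genes, and errors are standard errors. The number of arrays limits the precision (median standard error 0.35). No source used here ties arrays to litters, so p-values cover the spread of these arrays alone, part of which may be technical.

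Arrays with the same replicate number may be paired, but the labels do not say what the number stands for. The difference between replicates 1 and 2 correlated positively between groups in 15 of 15 pairs of groups (0.125 to 0.417). These pairs reuse the differences of the same 6 groups and are not 15 separate observations. The block is therefore given beside results where it changes a call.

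The members and the 11 lists were chosen with earlier results of these data known. The rule named the members everywhere, up to 3 called genes with the largest difference from each list in a comparison, and the genes of highest correlation. Figla, Sohlh1, Fshr, Foxl2, Bmpr2, Astl, Oosp1 and the tested marker genes were named outside that rule for their known roles. Alternatives were a pseudocount of 16, no filter, a level of 7, median centring, the mean of all probe sets, a fit of only the groups compared, the replicate block and leaving out each array.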

Additional observations from a re-analysis of the deposited data

Results flagged for a closer look

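The Bmp15 probe set with the second highest mean, which was not the one used for the gene, showed a different step from day 2.5 to day 3.5 in released and in control embryos. It was -2.27 in embryos coming out of the U0126 arrest and -0.43 in control embryos, an interaction of -1.84 ± 0.39 (adjusted p = 0.0353 in limma, and 0.0203 with the replicate block). Of the 12 fits that leave out 1 array, 10 ended this call, with values from -1.98 to -1.69 and an adjusted p of up to 0.126. The probe set used gave -0.44 ± 0.58 (adjusted p = 0.763), and the third gave 0.65 ± 0.71 (adjusted p = 0.70).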

How the results depend on the processing

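Of 1056 member values recomputed under other settings and with the other 2 Bmp15 probe sets, 990 kept their direction and their side of the threshold, 47 changed side and 19 changed sign, all of the last from values that had not passed. The calls of all 5 members in control day 2.5 against control day 1.5 held under every alternative that gave a value. For Zp1, Zp2 and Bmp15 this is a description, as the filter built in their difference from control day 1.5. The call of Gdf9 in released day 3.5 against U0126 day 2.5 also held under every alternative. The filter at a level of 7 gave no value for Zp1.

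With the replicate block the counts of called genes were 2018 for released day 3.5 against control day 2.5 (1257 without it), 2165 for released day 4.5 against released day 3.5 (1365), 1017 for released day 4.5 against control day 3.5 (584) and 692 for the interaction (298). Among the members the block changed the calls of Gdf9 and Bmp15 given above (adjusted p = 0.0357 and 0.0315) and no other. With only the groups compared in the fit, limma called 0 genes for U0126 day 2.5 against control day 2.5 (1384 with all groups; 2245 at an unadjusted p under 0.05), 1381 for released day 3.5 against U0126 day 2.5 (2799), 13 for released day 3.5 against control day 3.5 (31), 313 for released day 4.5 against control day 3.5 and 38 for the interaction; these fits rest on fewer arrays. A pseudocount of 16 gave 20 and no filter gave 2 for released day 3.5 against control day 3.5, and no filter gave 194 for the interaction. Median centring moved the share of called genes that were higher to 45.4% for control day 3.5 against control day 2.5 (61.7% without it), 50.9% for released day 3.5 against control day 2.5 (68.0%) and 52.7% for the interaction (33.6%). The cause of these changes was not tested.

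Single members also changed side. Zp1 in released day 3.5 against U0126 day 2.5 was not called with a pseudocount of 16 (adjusted p = 0.144), no filter (0.0892), median centring (0.0543) or only the groups compared (0.108), nor was Zp2 with only the groups compared (0.0722). Zp3 in that comparison was called with a pseudocount of 16 (0.0405), and without either control day 3.5 array (0.0368 each), and Bmp15 with the filter at 7 (0.042), with the mean of its probe sets (0.0264) and without U0126 day 2.5 replicate 1 (0.00537). Zp2 in control day 3.5 against control day 2.5 was not called with a pseudocount of 16 (0.107).

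Leaving out 1 array at a time gave 4612 to 5702 called genes for control day 2.5 against day 1.5, 5346 to 6526 for control day 3.5 against day 1.5, 677 to 2392 for control day 3.5 against day 2.5, 409 to 1389 for U0126 day 2.5 against control day 2.5 and 4047 to 4849 against control day 1.5. It gave 1630 to 2888 for released day 3.5 against U0126 day 2.5, 268 to 1483 against control day 2.5 and 1 to 46 against control day 3.5, 321 to 1560 for released day 4.5 against released day 3.5, 84 to 677 against control day 3.5 and 22 to 396 for the interaction.

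Differences that changed sign were those of U0126 day 2.5 against control day 2.5 for Zp1 (-0.071 to 0.82 over the left-out arrays), Zp2 (-0.0031 to 1.01) and Bmp15 (-0.21 to 1.15), of released day 3.5 against control day 3.5 for Bmp15 (-0.12 to 0.18), and the interactions of Zp1 (-0.67 to 0.22), Zp2 (-0.62 to 0.40), Gdf9 (-0.56 to 0.62) and Bmp15 (-1.12 to 0.24). The Gdf9 interaction was -0.19 with a pseudocount of 16, and that of Zp2 0.11 with median centring. The 2 other Bmp15 probe sets, chosen after seeing the data, turned round U0126 day 2.5 against control day 2.5 (-0.60) and the interaction (0.65) for the third, and released day 4.5 against released day 3.5 (0.0033) and against control day 3.5 (0.045) for the second. Without 1 array the lone array left in a group is assumed to vary like the other groups. Signal near background limits Zp1, Zp2 and Bmp15 after day 1.5.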
